A study of Homo sapiens with 17 samples.

Results

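Histone messenger RNAs of the replication-dependent kind were followed through a time course of TRAIL in MDA-MB-231 cells. The members were the entries of the count table whose symbol begins with HIST1H, HIST2H, HIST3H or HIST4H and whose expected counts (estimated numbers of fragments per gene) summed to at least 10 over the 17 libraries. This rule kept 50 of the 89 entries with such a symbol, among 58870 entries in the table. The members were thus chosen by their summed counts, and their levels are a description. Of the other 39 entries, 30 were listed at 0 in all 17 libraries and 9 had fewer than 10 counts. HIST1H2BA with 10 counts and HIST1H2AK with 13.45 counts lay just inside the threshold. Just outside it lay HIST1H1T with 4 counts, HIST1H3PS1 with 2 counts and HIST1H2APS5 with 2 counts.

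MDA-MB-231 is an established human line from a triple-negative breast cancer, which the labels class as mesenchymal and basal B. TRAIL, a TNF-family ligand of death receptors, was added at 45 nM, a dose that the labels call suboptimal, and cells were sampled at 0, 1, 3, 6, 12 and 24 h. The analysis used 3 libraries at each time except 1 h, where it used 2. Every library, those at 0 h included, carried the same treated label, and the design used here has no untreated cells at later times, so time with TRAIL and time in culture cannot be told apart. The labels do not say that replicates came from separate cultures, so the p-values measure the spread between these libraries, which may be technical.

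The libraries held between 13731497 and 19234939 counts each. Replicates 2 and 3 at 6 h, and replicates 2 and 3 at 24 h, were closer to each other than the other pairs were. Their chi-square per gene, which is near 1 for sampling noise alone, was 1.57 and 1.67 over genes with at least 20 counts in the pair, against 3.44 to 12.3 in the other 14 pairs. Levels below are in CPM, that is, counts scaled to the library total. Genes usual for the line were high in every library, with VIM at 2490 to 3720 CPM, CD44 at 1220 to 1560 CPM and CAV1 at 759 to 979 CPM. The receptor genes ESR1 and PGR reached at most 0.148 and 0.0622 CPM. The receptor gene ERBB2 had 56.4 to 70.9 CPM, and of the luminal and epithelial genes EPCAM had 13.1 to 19.3 CPM, GATA3 6.97 to 12.1 CPM and CDH1 0.267 to 1.01 CPM. Of the immune markers, CD3E was at 0, PTPRC reached at most 0.334 CPM and CD14 had 0.73 to 1.98 CPM. Of the endothelial markers, CDH5 reached at most 0.137 CPM and PECAM1 had 0.789 to 3.98 CPM, and of the fibroblast markers, DCN reached at most 0.0686 CPM and LUM had 0.187 to 0.862 CPM.

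Replication-dependent histone genes supply the histones that package new DNA, and their mRNAs accumulate in S phase. Unlike other mRNAs they normally carry no poly(A) tail: the transcript ends just after a conserved stem-loop, which the stem-loop binding protein SLBP holds and which the U7 small nuclear ribonucleoprotein helps to cut. Some of these genes also give longer, polyadenylated transcripts, above all when cells stop dividing and differentiate. The kit used here selects RNA by its poly(A) tail, so the counts describe tailed forms and any tailless RNA carried along, and not the whole pool of histone mRNA.

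A search of the GENCODE 29 transcripts (GRCh38) for the histone stem-loop pattern found it in at least 1 transcript of 23 of the 50 members, and in 0.0339% of all 206694 transcripts. The sequences below show the 5 distinct forms among the members, 1 member for each, because the tailless form of a histone mRNA ends just after this element. Each is read 5′ to 3′ on the transcript, with the 16-base stem-loop in capitals and 5 transcript bases on either side.
HIST1H2AC: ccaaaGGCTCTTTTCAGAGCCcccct
HIST1H4H: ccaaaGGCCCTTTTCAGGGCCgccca
HIST2H4A: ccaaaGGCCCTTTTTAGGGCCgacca
HIST1H2BD: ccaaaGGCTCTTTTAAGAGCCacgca
HIST2H2BD: ccaaaGGCTCTTTTCAGGGCCactta
The form shown for HIST1H2AC was carried by 12 members, that of HIST1H4H by 4, that of HIST2H4A by 3, and those of HIST1H2BD and HIST2H2BD by 2 each.

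A poly(A) signal, AATAAA or ATTAAA on the transcript strand, lay in the last 40 bases of at least 1 transcript for 20 members. Over all GENCODE 29 transcripts, counted singly and not by gene, 30.2% had it, so the figures are not of the same kind. Both elements were annotated for 18 members, so that many of these genes had a stem-loop and a downstream tailed end. HIST1H2AC has 1114 bases after the stem-loop in its 1654-base transcript, and HIST2H2BE, an H2B gene, has 1729 bases after it. In HIST1H4J, by contrast, the transcript ended 6 bases after the stem-loop, and the signal letters stood before it. For 19 members the annotation holds the coding sequence without UTR, so that neither element could be looked for. These include HIST1H1C and HIST1H2BK, the members with the highest counts. Members with the signal held 47.7% of all member counts and those annotated without UTR held 47.4%.

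The members took between 0.007% and 0.0105% of each library, or 1081 to 1674 counts. Among the core histones, 12 of 23 H2A entries, 16 of 25 H2B entries, 10 of 17 H3 entries and 10 of 16 H4 entries were members, with 2 of 8 entries for the linker histone H1. H2B members held 36.1% of the member counts, H1 27.9%, H2A 22.8%, H4 8.81% and H3 4.41%. The HIST1 cluster on chromosome 6 gave 33 members with 80.3% of the counts, and the HIST2 cluster on chromosome 1 gave 16 members with 19.4%. HIST4H4 on chromosome 12 was the member of HIST4, and all 4 HIST3 entries were at 0. In total 46 members are annotated as protein-coding and 4 are not.

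A small set of genes supplied most of the signal. HIST1H1C, HIST1H2BK, HIST1H2AC and HIST1H2BD held 60.3% of the member counts, and the other 46 members held 39.7%. Per kilobase of annotated transcript, HIST1H2BK averaged 37.9 CPM and HIST1H1C averaged 36.3 CPM. The next in order, HIST2H2AA4, HIST1H2BD and HIST1H2AC, averaged 8.4, 8.2 and 5.8 CPM per kilobase. Lengths of HIST1H2BK and HIST1H1C are those of the coding sequence alone, which raises their level per kilobase against genes annotated with UTRs. At the other end, HIST1H2AK and HIST1H2BA averaged 0.0542 and 0.0347 CPM.

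Counts along the histone entries of chromosome 6 fell into stretches with and without signal. From HIST1H4D to HIST1H2BI (chr6:26188765-26273356, 84.6 kb; positions here and below are those of GENCODE 29 on GRCh38), 18 histone entries in a row had 3 counts in all, summed over 17 libraries. Of these 18, 15 are protein-coding genes of all 5 histone classes, and 15 were listed at 0. The 3 other entries of the table in that stretch had 2 counts together. The entries on either side, HIST1H2BE and HIST1H4H, had 31.1 and 655 counts. A count of 0 over 269248531 counts allows up to 3 counts, or 0.0111 CPM, by counting error only. Runs of 5 histone entries with 1 count in all lay from HIST1H2BPS2 to HIST1H4L, over 9.4 kb, and from HIST1H2BPS1 to HIST1H1A, over 286 kb, where 9 other entries of the table had 9699 counts. What sets these stretches apart was not tested.

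**Figure D1:**
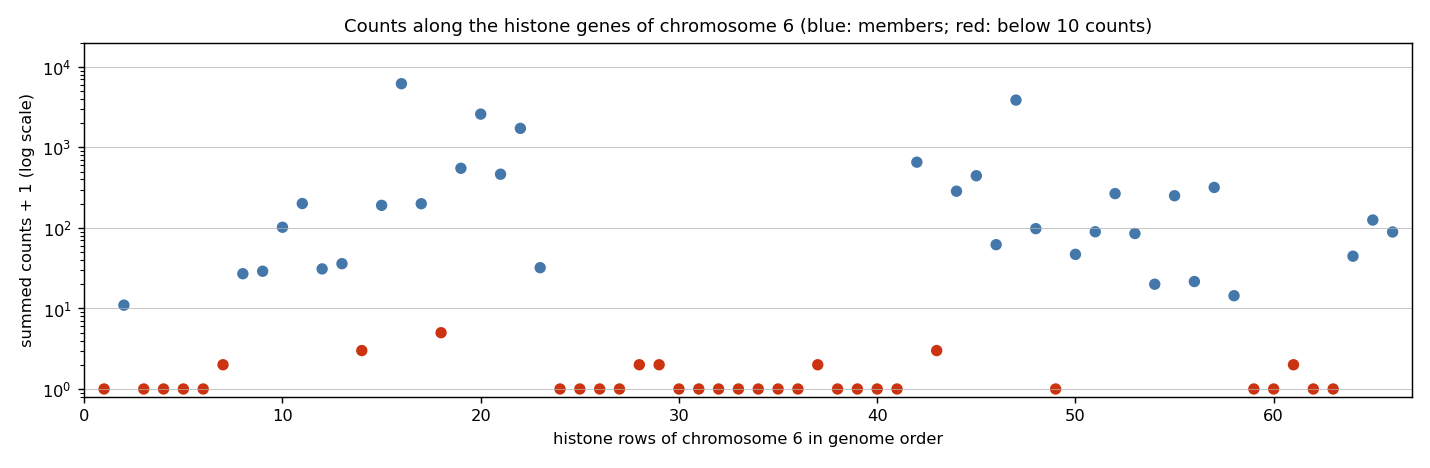
Expected counts summed over 17 libraries plus 1 (log scale) for each histone entry of chromosome 6, in genome order; blue points are members and red points are entries below 10 counts. The 18 entries from HIST1H4D to HIST1H2BI form an unbroken red run between HIST1H2BE and HIST1H4H.

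Many H2A and H2B genes stand head to head and share the stretch between their starts. HIST1H2BC (chr6:26114873-26123926, minus strand) and HIST1H2AC (chr6:26124145-26139116, plus strand) are such a pair with 218 bases between them. The stretch is shown because both genes start from it. It runs just past the annotated start of HIST1H2AC at 26124145, so TATAAA reaches into that gene. It is chr6:26123927-26124146 on the plus strand, from RefSeq (GRCh38.p14), with the CCAAT box, TATAAA and the octamer ATTTGCAT in capitals on whichever strand they occur.
HIST1H2BC to HIST1H2AC: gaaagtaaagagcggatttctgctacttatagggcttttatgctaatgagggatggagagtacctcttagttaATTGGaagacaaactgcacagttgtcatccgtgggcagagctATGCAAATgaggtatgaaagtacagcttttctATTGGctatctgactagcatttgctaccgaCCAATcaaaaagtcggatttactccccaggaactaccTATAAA
The stretch holds CCAAT on the plus strand at base 178 and on the minus strand (ATTGG) at bases 74 and 148, the octamer on the minus strand (ATGCAAAT) at base 116, and TATAAA on the plus strand at base 215, counted from its first base. Averaged over the libraries, HIST1H2AC had 9.6 CPM and HIST1H2BC had 2.06 CPM. Other head-to-head pairs ranged from close levels, as for HIST2H2AA3 and HIST2H2BD with 1.84 and 2.06 CPM or HIST1H2BJ and HIST1H2AG with 1.05 and 1.63 CPM, to HIST1H2BK with 14.4 CPM and its partner HIST1H2AH, 330 bases away, with 0.363 CPM.

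Promoters of 40 members were found in RefSeq (GRCh38.p14) and searched on both strands over the 250 bases before the start. A member was counted when any promoter listed for it matched, while the shares over all genes are of single promoters. CCAAT was present in 33 of 40, against 32.0% of 35116 promoters of all genes, and TATAAA in 31 of 40, against 10.7%. The octamer ATTTGCAT, which does not contain either of the other motifs, was present in 15 of 40, against 1.63% of all promoters. The classes differed: CCAAT stood before 11 of 11 H2A, 11 of 11 H2B and 8 of 8 H3 members but 1 of 8 H4 members, while the octamer stood before 7 of 11 H2A and 8 of 11 H2B members and 0 of the H1, H3 and H4 members. Partners of a head-to-head pair share part of the stretch searched, so their H2A and H2B matches are not separate observations. A match is a run of letters and not evidence of binding.

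Some members are near-identical copies, among which the counting divided fragments. Values were not whole in at least 1 library for 30 members, and 40.5% of the positive member values were not whole, against 30.6% over the table. HIST2H3A and HIST2H3C share an identical 1656-base transcript and had the same count in each of the 17 libraries. HIST2H4A and HIST2H4B share a 610-base transcript, and HIST2H4B was listed at 0 at 0 h in replicate 2 with 46 counts for HIST2H4A, but at 15.2 in replicate 1 with 34.8 for HIST2H4A. Summed, the H4 pair ran only from 1.96 to 3.5 CPM over all libraries. Likewise HIST2H2AA3 was at 0 in 1 library at 1 h and 1 at 3 h, where HIST2H2AA4 had its 2 highest counts, 98.2 and 119.9, so the split within each pair is uncertain and the sum is the steadier value.

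Over the time course the summed level of all members was lowest at 6 h. It was 95.8, 86.7 and 82.6 CPM at 0 h, 92.7 and 97.5 CPM at 1 h, 103, 111 and 90.2 CPM at 3 h, 77.0, 71.7 and 69.8 CPM at 6 h, 102, 81.2 and 93.0 CPM at 12 h, and 92.0, 85.6 and 83.5 CPM at 24 h. All 3 libraries at 6 h lay below each of the other 14. In RNA from a whole culture, fewer cells that express a gene and less RNA per cell cannot be told apart. The 4 highest members summed to 56.3 ± 5.2 CPM (SD, n = 3) at 0 h and to 40.6 ± 4.25 CPM (SD, n = 3) at 6 h. These 4 are the members called lower at 6 h below, so their sum repeats those calls. The other 46 members summed to 32.1 ± 2.18 CPM at 0 h and 32.2 ± 1.43 CPM at 6 h (SD, n = 3 each), and were highest at 3 h with 42.5 ± 5.34 CPM (SD, n = 3). By class, H4 members went from 7.03 ± 0.161 CPM at 0 h to 9.96 ± 0.454 CPM at 3 h, and H3 members from 3.17 ± 0.435 to 5.37 ± 1.5 CPM (SD, n = 3 each), with no library of the 2 times overlapping in either class. The other classes overlapped between these times: H2B members had 33.4 ± 2.85 and 33.3 ± 2.36 CPM, H2A members 20.4 ± 0.689 and 21.5 ± 2.88 CPM, and H1 members 24.3 ± 3.91 and 31.3 ± 5.03 CPM at 0 h and 3 h (SD, n = 3 each).

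**Figure D2:**
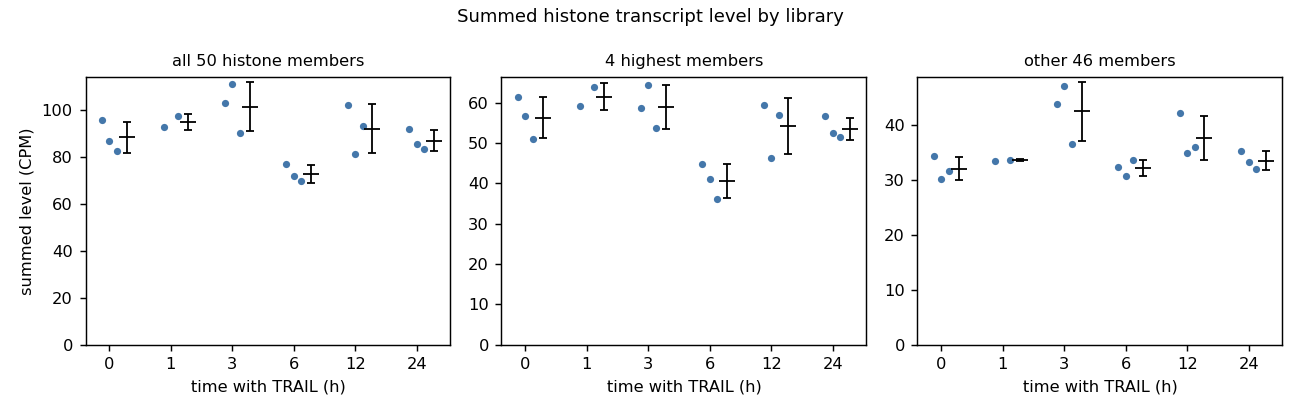
Summed level in CPM of all 50 members, of the 4 highest (HIST1H1C, HIST1H2BK, HIST1H2AC, HIST1H2BD) and of the other 46, against hours with TRAIL; each blue point is a library, and the black bar with whiskers is the mean ± SD of 3 libraries (2 at 1 h). The 6 h libraries are lowest for the 4 highest members (36.2 to 44.7 CPM), and the 3 h libraries are higher than those at 0 h for the other 46 (36.6 to 47.0 CPM against 30.1 to 34.4 CPM).

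For tests of single genes, 27 of the 50 members passed the filter on low counts, and 23 were not tested. A gene was called when its p-value from the quasi-likelihood test of edgeR, adjusted by the Benjamini-Hochberg method over all 15365 genes tested, was below 0.05. The comparisons with 0 h share the same 3 libraries at 0 h. At 1 h, 0 of 27 members were called higher and 0 lower in edgeR, with 1 member (HIST1H3C) at an unadjusted p below 0.05 and 0 called by DESeq2. Over all genes tested, 0.26% were called higher and 0.0521% lower at 1 h.

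At 3 h, 4 of the 27 tested members rose and 0 fell: HIST1H3B and HIST1H3C, which encode histone H3, HIST1H4H, which encodes histone H4, and HIST1H2BC, which encodes histone H2B. The members called were 14.8% of those tested. Over all genes tested, 9.04% were called higher and 8.71% lower. With 4 calls among 27 members, the count alone is not a result about the members. The members' median log2 fold change was 0.41, against -0.004 over all genes tested, with 19 of 27 values above 0. These values count the identical HIST2H3A and HIST2H3C apart. The median was 0.37 with near-identical copies summed, 0.29 without replicate 3 at 0 h and 0.51 without replicate 1 at 0 h.

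HIST1H3B (chr6:26031650-26032060, minus strand) had 0.436, 0.374 and 0.373 CPM at 0 h, 0.760 and 0.400 CPM at 1 h, 1.26, 1.79 and 0.860 CPM at 3 h, 0.506, 0.862 and 0.755 CPM at 6 h, 1.58, 0.853 and 0.555 CPM at 12 h, and 0.585, 0.558 and 0.467 CPM at 24 h. Every later library except 1 at 1 h stood above the 3 at 0 h, and replicate 2 at 3 h was the highest of all. The log2 fold change at 3 h was 1.70 (SE 0.42, adjusted p = 0.009 by edgeR), on 6 to 23 counts per library, and fell short of the threshold without replicate 2 at 3 h (1.41, adjusted p = 0.0585).

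HIST1H3C (chr6:26045411-26045821, plus strand) had 0.249, 0.498 and 0.311 CPM at 0 h, 0.570 and 1.00 CPM at 1 h, 0.890, 1.01 and 0.717 CPM at 3 h, 0.632, 1.19 and 0.809 CPM at 6 h, 0.617, 0.803 and 0.833 CPM at 12 h, and 0.703, 0.558 and 0.667 CPM at 24 h. All 14 later libraries lay above the 3 at 0 h. Its log2 fold change was 1.28 at 3 h (SE 0.39, adjusted p = 0.0279 by edgeR) and 1.29 at 6 h (SE 0.38, adjusted p = 0.0149), on 4 to 18 counts per library. The 6 h call was lost without replicate 1 at 0 h (1.09, adjusted p = 0.0738) or replicate 2 at 6 h (1.02, adjusted p = 0.0867).

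HIST1H4H (chr6:26277609-26285638, minus strand) had 1.99, 1.87 and 2.05 CPM at 0 h, 3.04 and 1.47 CPM at 1 h, 3.56, 2.80 and 3.44 CPM at 3 h, 2.21, 2.06 and 2.37 CPM at 6 h, 2.88, 2.21 and 2.72 CPM at 12 h, and 2.87, 2.11 and 2.00 CPM at 24 h. The 3 h libraries did not overlap those at 0 h. At 3 h its log2 fold change was 0.73 (SE 0.23, adjusted p = 0.031 by edgeR).

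HIST1H2BC had 1.68, 1.56 and 1.87 CPM at 0 h, 2.03 and 1.80 CPM at 1 h, 3.19, 3.11 and 2.29 CPM at 3 h, 2.21, 1.19 and 2.00 CPM at 6 h, 2.33, 2.36 and 1.72 CPM at 12 h, and 1.64, 1.86 and 2.27 CPM at 24 h. It was highest in replicates 1 and 2 at 3 h, and its 3 h and 0 h libraries did not overlap. The log2 fold change at 3 h was 0.75 (SE 0.23, adjusted p = 0.0306 by edgeR). Its head-to-head neighbour HIST1H2AC stood at -0.21 at 3 h (SE 0.13, adjusted p = 0.267), and the difference between the 2 genes was not tested.

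The 3 h calls depended on single libraries. Among the alternatives that gave an adjusted p, the call was lost in 6 of 27 for HIST1H4H and 6 of 27 for HIST1H2BC. It was lost in 5 of 26 for HIST1H3C and 1 of 26 for HIST1H3B. DESeq2 gave no adjusted p for HIST1H3C and HIST1H3B, so it is not in their counts, and it did not call them. Without replicate 3 at 0 h, without replicate 1 at 3 h or without replicate 2 at 3 h, 1 member was called higher, and without replicate 2 at 0 h there were 2. DESeq2 called 0 of the 27, with 8 at an unadjusted p below 0.05 and 12 left without an adjusted p by its own filter.

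**Figure D3:**
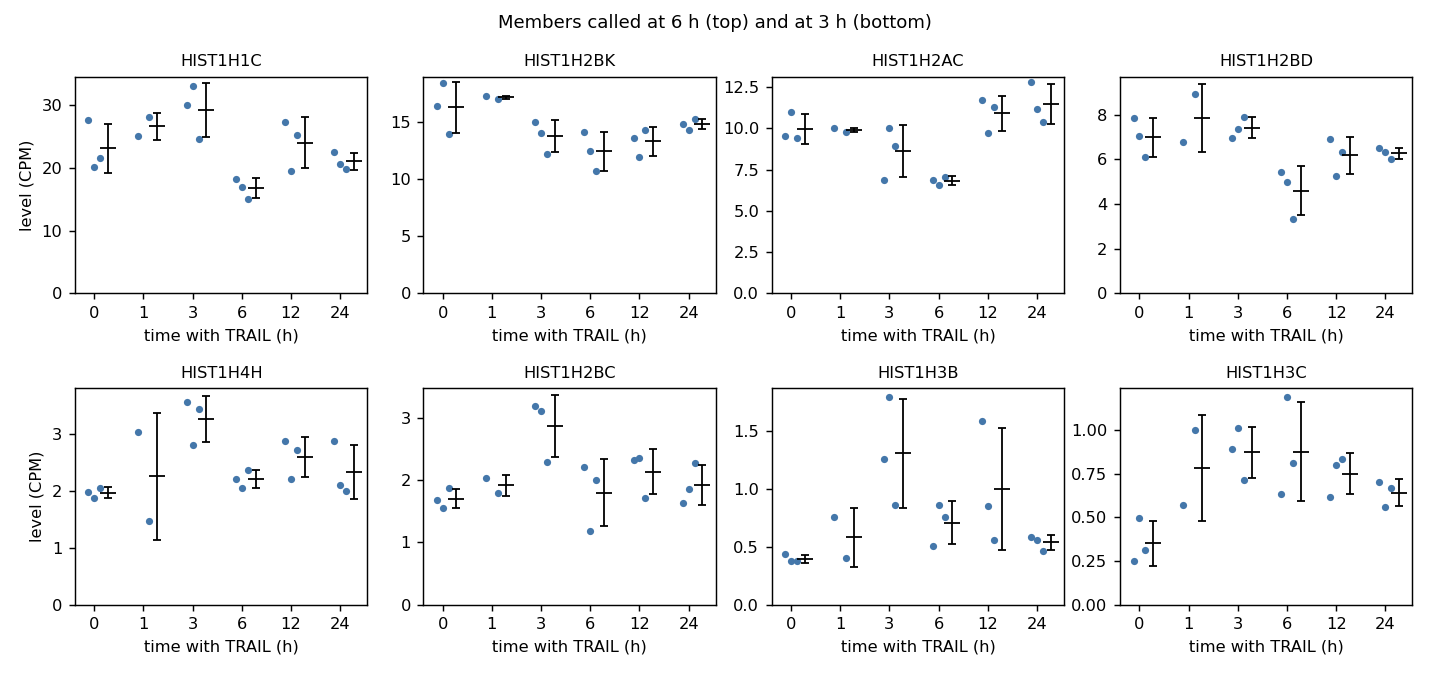
Level in CPM against hours with TRAIL for the 4 members called lower at 6 h (top) and the 4 called higher at 3 h (bottom, of which HIST1H3C was also called higher at 6 h); points are libraries and black bars the mean ± SD of 3 libraries (2 at 1 h). HIST1H1C, HIST1H2AC and HIST1H2BD have all 6 h points below all 0 h points, while for HIST1H2BK 1 point at 6 h (14.1 CPM) lies above 1 at 0 h (13.9 CPM).

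Some RNAs that normally lack a poly(A) tail were also called higher at 3 h. From a list of 28 such RNAs, 9 entries could be tested, and 4 rose at 3 h and 0 fell (median of the 9, 0.78 on the log2 scale), where 9.04% of all genes tested were called higher and 8.71% lower. RN7SK, the RNA of a complex that restrains transcription elongation, had 9.02, 7.72 and 9.27 CPM at 0 h and 16.7, 15.5 and 13.5 CPM at 3 h (log2 fold change 0.81, SE 0.18, adjusted p = 0.00527 by edgeR). RN7SL1, an RNA of the signal recognition particle, changed by 0.69 (SE 0.20, adjusted p = 0.0285), MALAT1, a nuclear RNA with a processed end, by 0.69 (SE 0.20, adjusted p = 0.0307) and SNORD3A, a small nucleolar RNA, by 0.93 (SE 0.27, adjusted p = 0.023). The summed level of the list ran from 151 to 226 CPM at 0 h, 224 to 261 at 1 h, 261 to 326 at 3 h, 176 to 235 at 6 h, 146 to 211 at 12 h and 90.3 to 100 at 24 h. The RN7SK call held in each alternative, while MALAT1 (0.56 without replicate 2 at 0 h, adjusted p = 0.104), RN7SL1 (0.62 without replicate 3 at 0 h, adjusted p = 0.112) and SNORD3A (0.75 without replicate 2 at 3 h, adjusted p = 0.12) each lost theirs. The summed level, mostly that of MALAT1, was thus higher at 3 h than at 0 h in every library. At 6 h this sum overlapped its 0 h range, and at 24 h it was below that range. The part of these RNAs in the 3 h result was not tested. The median at 3 h was 0.13 over the 18 tested members with an annotated poly(A) signal and 0.78 over the other 9. Of these 9, 7 are annotated without UTR (HIST1H1C, HIST1H2BK, HIST1H3B, HIST1H3C, HIST2H2AC, HIST1H2AM and HIST1H2AH), so a signal could not be looked for in most of them.

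**Figure D4:**
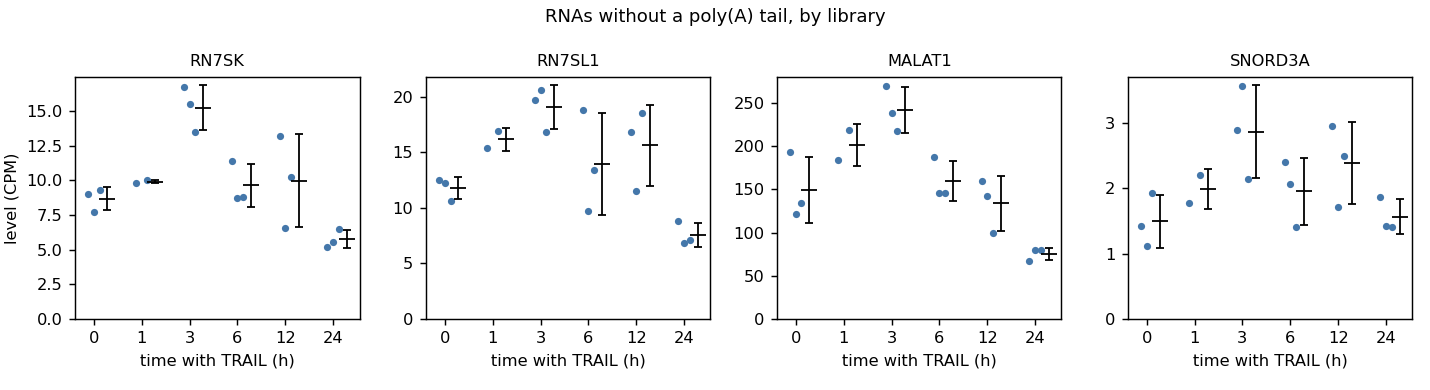
Level in CPM against hours with TRAIL of the 4 RNAs without a poly(A) tail that were called higher at 3 h; points are libraries and black bars the mean ± SD of 3 libraries (2 at 1 h). The 3 h points of RN7SK, MALAT1, RN7SL1 and SNORD3A all lie above their 0 h points.

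At 6 h, 4 of the 27 tested members fell and 1 rose. Those that fell were the 4 with the highest counts among single entries: HIST1H1C, HIST1H2AC, HIST1H2BK and HIST1H2BD. HIST1H1C encodes a linker histone, HIST1H2AC an H2A, and HIST1H2BK and HIST1H2BD an H2B. Summed, the copies HIST2H2AA4 and HIST2H2AA3 had 7.03, 6.10 and 7.16 CPM at 0 h, a level like that of HIST1H2BD. At 6 h the pair had 6.13, 5.97 and 5.23 CPM. With near-identical copies summed, the count of members called lower at 6 h was again 4. HIST1H3C was the one that rose. Over all genes tested, 13.2% were called lower and 16.9% higher. The share of members called lower was near that over all genes, so the count alone is not a result about the members. The members' median log2 fold change was 0.04, against -0.02 over all genes tested, and it turned with single libraries: it was -0.15 without replicate 3 at 6 h, -0.07 without replicate 1 at 6 h and 0.14 without replicate 3 at 0 h.

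HIST1H1C (chr6:26055787-26056428, minus strand) had 27.6, 20.2 and 21.5 CPM at 0 h, 25.1 and 28.1 CPM at 1 h, 30.0, 33.1 and 24.6 CPM at 3 h, 18.3, 17 and 15.1 CPM at 6 h, 27.3, 19.5 and 25.2 CPM at 12 h, and 22.6, 20.6 and 19.9 CPM at 24 h. The 3 libraries at 6 h were the lowest of the 17. Its log2 fold change at 6 h was -0.46 (SE 0.14, adjusted p = 0.0179 by edgeR), and the call was lost without replicate 1 at 0 h (-0.32, adjusted p = 0.121) or without replicate 3 at 6 h (-0.39, adjusted p = 0.0924).

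HIST1H2AC had 9.52, 11 and 9.40 CPM at 0 h, 10.0 and 9.80 CPM at 1 h, 6.90, 10.0 and 8.96 CPM at 3 h, 6.89, 6.57 and 7.07 CPM at 6 h, 11.7, 9.73 and 11.3 CPM at 12 h, and 12.8, 11.2 and 10.4 CPM at 24 h. The 6 h libraries were close together and below all others except replicate 1 at 3 h. The log2 fold change at 6 h was -0.54 (SE 0.13, adjusted p = 0.004 by edgeR), and the call held in each alternative fit and without each single library.

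HIST1H2BD (chr6:26158146-26171349, plus strand) had 7.84, 7.04 and 6.10 CPM at 0 h, 6.77 and 8.93 CPM at 1 h, 6.97, 7.38 and 7.89 CPM at 3 h, 5.43, 4.98 and 3.35 CPM at 6 h, 6.92, 5.27 and 6.33 CPM at 12 h, and 6.50, 6.32 and 6.00 CPM at 24 h. Replicate 3 at 6 h was the lowest library, and the 6 h libraries did not overlap those at 0 h. At 6 h the log2 fold change was -0.62 (SE 0.16, adjusted p = 0.00828 by edgeR), and without replicate 3 at 6 h it was -0.42 (adjusted p = 0.0705).

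HIST1H2BK (chr6:27146418-27146798, minus strand) had 16.4, 18.4 and 13.9 CPM at 0 h, 17.2 and 17 CPM at 1 h, 15.0, 14 and 12.2 CPM at 3 h, 14.1, 12.4 and 10.7 CPM at 6 h, 13.6, 11.9 and 14.3 CPM at 12 h, and 14.8, 14.3 and 15.2 CPM at 24 h. Replicate 1 at 6 h overlapped replicate 3 at 0 h, so the groups were not apart. The log2 fold change was -0.39 (SE 0.11, adjusted p = 0.0143 by edgeR), and its counts were not whole in any of the 17 libraries. The HIST1H2BK call was lost without replicate 2 at 0 h (-0.29, adjusted p = 0.0831) or replicate 3 at 6 h (-0.29, adjusted p = 0.102). Without replicate 3 at 6 h, 1 of the 4 members was still called lower, and with replicates 2 and 3 at 6 h averaged as 1 library, 2 were.

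The tested members below these in level showed no call at 6 h against 0 h other than HIST1H3C. Their SE were larger, so changes of like size could go uncalled. For HIST1H3H the change was -0.54 (SE 0.32, adjusted p = 0.206 by edgeR). HIST2H2AA4 (chr1:149851061-149851624, plus strand), an H2A gene, had 5.72, 4.17 and 4.54 CPM at 0 h, 6.20 and 5.33 CPM at 1 h, 6.30, 9.32 and 3.87 CPM at 3 h, 3.48, 5.44 and 2.37 CPM at 6 h, 3.91, 3.26 and 5.05 CPM at 12 h, and 2.87, 3.72 and 4.94 CPM at 24 h. At every later time its libraries overlapped those at 0 h, and its split from HIST2H2AA3 is uncertain as described above. HIST2H4A (chr1:149832659-149839767, plus strand), an H4 gene, had 2.18, 2.87 and 1.93 CPM at 0 h, 1.84 and 2.27 CPM at 1 h, 2.97, 3.03 and 2.58 CPM at 3 h, 1.39, 2.06 and 2.37 CPM at 6 h, 3.43, 2.41 and 2.22 CPM at 12 h, and 1.99, 2.48 and 1.47 CPM at 24 h. HIST2H2BD (chr1:149842875-149846486, plus strand), annotated as a transcribed pseudogene of the H2B class, had 2.36, 1.81 and 1.87 CPM at 0 h, 2.34 and 2.60 CPM at 1 h, 2.22, 1.94 and 1.65 CPM at 3 h, 1.45, 1.39 and 1.56 CPM at 6 h, 2.33, 2.26 and 1.89 CPM at 12 h, and 2.87, 3.10 and 1.40 CPM at 24 h. The 6 h libraries of HIST2H2BD lay below those at 0 h, but the change of -0.45 (SE 0.25, adjusted p = 0.189 by edgeR) was not called. HIST2H2BD overlaps AC239868.1 on the other strand, and HIST2H4A overlaps HIST2H3C in the same way. The strand setting of the counting is not given in the sources used here, so reads of such partners may not be separated.

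**Figure D5:**
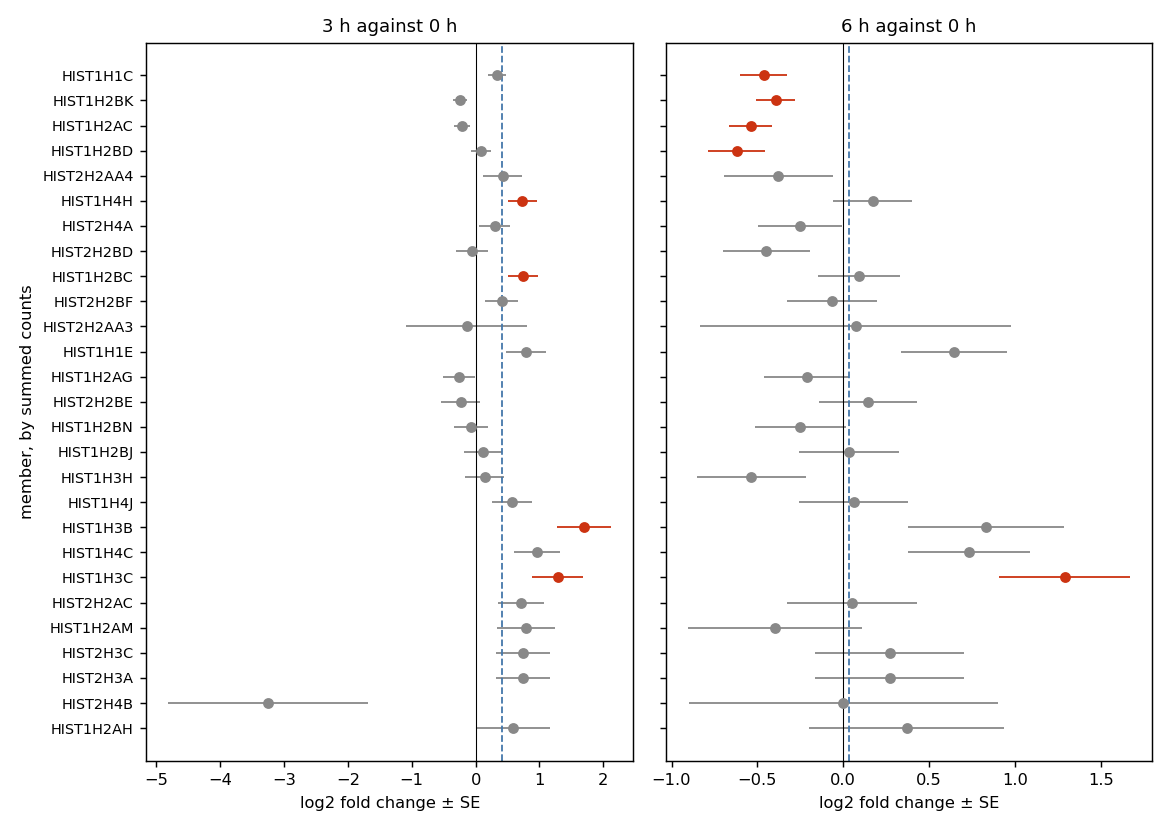
Log2 fold change ± SE of the 27 tested members at 3 h (left) and 6 h (right) against 0 h, ordered by summed counts from the top; red points were called and the dashed line is the members' median (0.41 at 3 h, 0.04 at 6 h). At 6 h the red points left of 0 are the 4 members with the highest counts when copies are not summed. At 3 h the red points are HIST1H4H, HIST1H2BC, HIST1H3B and HIST1H3C, all right of 0.

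The times 3 h and 6 h were compared because they were the consecutive times that differed most in an earlier analysis of these data. Between them, 6 of the 27 tested members fell and 0 rose. Over all genes tested, 20.3% were called lower and 22.9% higher. The share of members called lower, 22.2%, was near the first of these, so the count alone is not a result about the members. HIST1H1C fell by 0.80 on the log2 scale (SE 0.14, adjusted p = 0.000262 by edgeR) and HIST1H2BD by 0.71 (SE 0.17, adjusted p = 0.00215), and both calls held in each alternative. HIST1H2BC stood at -0.65 (SE 0.23, adjusted p = 0.0251), HIST1H4H at -0.56 (SE 0.22, adjusted p = 0.0479) and HIST1H2AC at -0.33 (SE 0.13, adjusted p = 0.0495). HIST1H2AM, an H2A gene, had 0.816, 0.932 and 0.645 CPM at 3 h and 0.253, 0.464 and 0.324 CPM at 6 h, after 0.560, 0.374 and 0.436 CPM at 0 h and 0.316 and 0.467 CPM at 1 h, and before 0.686, 0.201 and 0.833 CPM at 12 h and 0.293, 0.124 and 0.334 CPM at 24 h. Its 3 h and 6 h libraries did not overlap (log2 fold change -1.19, SE 0.47, adjusted p = 0.0459), on 2 to 15 counts per library. Of the alternatives, 19 lost the HIST1H2AC call, 16 that of HIST1H4H, 16 that of HIST1H2AM and 6 that of HIST1H2BC. The count of members called lower was 3 without replicate 3 at 0 h, replicate 1 or 2 at 3 h, or replicate 1 at 6 h. With HIST2H2AA3 and HIST2H2AA4 summed, that pair was also called lower, with a log2 fold change of -0.51 (adjusted p = 0.00487), where HIST2H2AA4 alone stood at -0.80 (SE 0.32, adjusted p = 0.0508).

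At 12 h and 24 h the edgeR test called 0 members higher and 0 lower. At 12 h, 7 members had an unadjusted p below 0.05 in edgeR and 5 in DESeq2, and 5.96% of all genes tested were called higher and 6.48% lower. The member nearest the threshold was HIST1H3B, at 1.28 (SE 0.43, adjusted p = 0.0526). At 24 h, when 18% of all genes tested were called higher and 17.1% lower, 1 member had an unadjusted p below 0.05 in edgeR and 0 in DESeq2. The members' median log2 fold change was 0.19 at 12 h and -0.06 at 24 h, against -0.003 and -0.002 over all genes tested. The 12 h median was 0.09 without replicate 1 at 12 h, and the 24 h median was 0.11 with the length and GC correction and 0.07 without replicate 1 at 0 h, so its sign was not settled. HIST1H2AC, lower at 6 h, stood at 0.12 (SE 0.12) at 12 h and 0.20 (SE 0.12) at 24 h.

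In the test over all times, 7 of the 27 members varied, which is 25.9%, where 64.2% of all genes tested did. The 2 shares were not matched for depth. Many tested members have low counts, such as HIST1H2AM with 2 to 15 and HIST1H3C with 4 to 18 per library. A change is harder to call at such counts, so the shares do not show that the members vary less. The 7 were HIST1H2AC (adjusted p = 0.000587 by edgeR), HIST1H1C (0.00144), HIST1H2BD (0.00666), HIST1H4C (0.00798), HIST1H3B (0.0139), HIST1H2BK (0.0147) and HIST1H2AG (0.0226). HIST1H4C, an H4 gene, had 0.581 ± 0.157 CPM at 0 h, 0.293 ± 0.0566 CPM at 1 h (n = 2) and 1.14 ± 0.283 CPM at 3 h (SD, n = 3 otherwise). HIST1H2AG, an H2A gene, was highest at 12 h with 2.33 ± 0.616 CPM, against 1.58 ± 0.143 CPM at 0 h (SD, n = 3 each). Without replicate 3 at 3 h, 11 members were called. HIST1H1E, the other linker histone among the members, had 1.12, 1.12 and 1.31 CPM at 0 h and 2.19, 1.96 and 2.11 CPM at 12 h, a change of 0.81 (SE 0.30, adjusted p = 0.0823 by edgeR) that was not called.

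Of 6 members known from general knowledge to give polyadenylated transcripts (HIST1H1C, HIST1H2AC, HIST1H2BC, HIST1H2BD, HIST1H2BK and HIST2H2BE), 1 rose and 0 fell at 3 h, and 4 fell and 0 rose at 6 h. Their summed level ran from 54.5 to 64.8 CPM at 0 h and from 40.4 to 48.4 CPM at 6 h, with no overlap. This list includes the 4 highest members, so it repeats their result.

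The counts for the lists of related genes stand beside the shares over all genes tested: 9.04% called higher and 8.71% lower at 3 h, 16.9% higher and 13.2% lower at 6 h, 5.96% higher and 6.48% lower at 12 h, 18% higher and 17.1% lower at 24 h, and 22.9% higher and 20.3% lower for 6 h against 3 h. A share near these is not a result about the list.

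Of the genes that process, translate or degrade histone mRNA, 30 of 31 were tested: 4 rose and 0 fell at 3 h, 7 rose and 2 fell at 6 h, 2 rose and 2 fell at 12 h, and 3 rose and 7 fell at 24 h, each against 0 h. The 9 called at 6 h are about the share called over all genes. SLBP, the stem-loop binding protein, had 150 ± 5.11 CPM at 0 h and 133 ± 3.89 CPM at 6 h (SD, n = 3 each), a log2 fold change of -0.17 (SE 0.05, adjusted p = 0.0183 by edgeR). The SLBP call was lost without replicate 3 at 0 h or replicate 2 at 6 h (adjusted p of 0.0686 and 0.0886). LSM10, a subunit of the U7 particle, fell by 0.47 at 6 h (SE 0.09, adjusted p = 0.00105). NPAT, the coactivator of histone gene transcription, was not called at any time against 0 h (-0.26 at 3 h, adjusted p = 0.0757) and was higher at 6 h than at 3 h by 0.43 (SE 0.10, adjusted p = 0.00177). Between 3 h and 6 h, TUT7, a uridylyl transferase of histone mRNA decay, rose by 0.49, CPSF2, a cleavage factor subunit, rose by 0.38, and the decay factors LSM1 and DIS3L2 fell by 0.33 and 0.25, among 9 that rose and 4 that fell.

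Variant histones have mRNAs that are mostly tailed and made outside S phase too. Of 11 tested out of 20, 1 rose and 1 fell at 3 h, 1 rose and 3 fell at 6 h, 1 rose and 3 fell at 12 h, and 0 rose and 5 fell at 24 h, with 4 lower and 0 higher at 6 h against 3 h. At 3 h the share called in each direction was near that over all genes. At 6 h, 3 of 11 fell and 1 of 11 rose, where 13.2% of all genes tested were called lower and 16.9% higher. On 11 genes these shares rest on few calls. H2AFX, the variant marked at DNA breaks, whose gene gives both a stem-loop and a tailed mRNA, stood at 0.34 at 3 h (adjusted p = 0.0275 by edgeR) and -0.50 at 24 h (adjusted p = 0.00143). H2AFZ fell by 0.34 at 24 h (SE 0.06, adjusted p = 0.000312) and H3F3B by 0.15 (SE 0.05, adjusted p = 0.0274). At 6 h against 3 h, H2AFJ, H2AFX and the linker variant H1FX fell by 0.58, 0.52 and 0.37.

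Histone chaperones carry histones to DNA. Of 24 tested, 1 rose and 2 fell at 3 h, 8 rose and 6 fell at 6 h, 0 rose and 7 fell at 12 h, and 5 rose and 8 fell at 24 h, with 10 higher and 4 lower at 6 h against 3 h. The share called at 3 h was below that over all genes. In that last comparison ATRX, SPTY2D1 and UBN1 rose by 0.84, 0.57 and 0.45, and NASP, RBBP4 and CHAF1B fell by 0.31, 0.25 and 0.24. Against 0 h at 6 h, CHAF1B, a subunit of the chaperone coupled to DNA replication, fell by 0.37 (SE 0.06, adjusted p = 0.000171 by edgeR).

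Among the genes of DNA replication and S phase entry, more were called lower than higher at each time from 3 h on. Of 45 tested, 2 rose and 8 fell at 3 h, 2 rose and 21 fell at 6 h, 0 rose and 30 fell at 12 h, and 1 rose and 23 fell at 24 h, where 8.71%, 13.2%, 6.48% and 17.1% of all genes tested were called lower at these times. PCNA, the sliding clamp of DNA polymerases, had 324 ± 13.8 CPM at 0 h, 223 ± 12.4 CPM at 6 h and 225 ± 17.3 CPM at 24 h (SD, n = 3 each), a log2 fold change of -0.54 at 6 h (SE 0.06, adjusted p = 4.33e-06 by edgeR). At 6 h against 3 h, 8 rose and 15 fell: POLA2, POLE and PCNA fell by 0.69, 0.49 and 0.49, while RRM1, CCNA2 and ORC1 rose by 0.47, 0.43 and 0.33. Beside this, the summed level of the histone members averaged 88.4 CPM at 0 h, 72.8 CPM at 6 h and 87.0 CPM at 24 h.

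In the list of G1 arrest, 9 of 10 were tested: 1 rose and 3 fell at 3 h, 2 rose and 3 fell at 6 h, 0 rose and 1 fell at 12 h, and 1 rose and 1 fell at 24 h. CDKN1A, an inhibitor of cyclin-dependent kinases, rose by 0.43 at 3 h (SE 0.06, adjusted p = 3.22e-05 by edgeR) and by 0.96 at 6 h (SE 0.06, adjusted p = 1.24e-09). At 6 h against 3 h, RB1, CDKN1A and CDKN1B rose by 0.63, 0.53 and 0.46, among 4 that rose, and CDKN2C and CCND3 fell by 0.17 and 0.16. The list of RNAs without a poly(A) tail had 2 members lower at 6 h than at 3 h, RN7SK (-0.66) and MALAT1 (-0.60), and 3 lower at 24 h than at 0 h, RN7SK (-0.60), RN7SL1 (-0.63) and MALAT1 (-0.98). With the length and GC correction the 24 h values of RN7SK and RN7SL1 were -0.33 and -0.27 (adjusted p of 0.0962 and 0.153). The list had 0 calls at 6 h and 12 h against 0 h, and all 6 lists of related genes had 0 calls at 1 h.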

How the data were processed

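The authors deposited 1 table of expected counts per gene for the 17 libraries, made by RSEM per the file name, not scaled to depth or length. The submitters' processing notes name cutadapt 1.18, STAR 2.7.0f and build hg38; the annotation release and the strand setting are not given in the sources used here. Of 58870 entries, 58597 matched a GENCODE 29 identifier, or 47384 with the version. Libraries were made from RNA with a stranded mRNA kit, per the labels' protocols.

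Expected counts were rounded to whole numbers, filtered with filterByExpr and scaled by TMM (factors 0.939 to 1.06) in edgeR 4.0.16 (R 4.3.3). A single quasi-likelihood fit, with 1 mean for each time, used all 17 libraries, and each time was compared with 0 h, 6 h with 3 h, and all times together. Adjustment was over 15365 genes. The fit was tested on simulated data. CPM use TMM-scaled totals. Alternatives were RLE scaling, library size alone, no filter, the replicate number as a block, a length and GC correction, both together, averaging of the closest replicate pairs, summed gene copies, limma-voom (limma 3.58.1), DESeq2 1.42.0, and each library left out. The members, the gene lists and the comparison of 6 h with 3 h were chosen with earlier results of these data known.

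Values per library are given for the 8 members with the highest mean CPM and, per comparison, up to 4 called members in each direction. From each list, up to 3 called genes in each direction at 6 h against 3 h are named, and always SLBP, NPAT, H2AFX, H2AFZ, H3F3B, PCNA and CDKN1A. Other members and genes were named after their values were seen.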

Additional observations from a re-analysis of the deposited data

How the results depend on the processing

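The number of members called depended on the setting at the smaller effects. At 3 h, members called higher went from 4 to 0 in DESeq2 and 1 to 5 when single libraries were left out. Members called lower there went from 0 to 1 without a filter, with the length and GC correction or with the replicate number as a block, and to 2 with the block and that correction together. At 6 h, averaging replicates 2 and 3 gave 0 higher (0 to 1 with single libraries left out) and 2 lower (1 to 4). At 12 h, members called higher went from 0 to 1 with library size alone or the replicate block, 2 without a filter, 3 with the length and GC correction and 3 with the block added (0 to 2 with libraries left out, at most without replicate 3 at 3 h or replicate 3 at 12 h). Members called lower at 12 h went from 0 to 1 without a filter, with the replicate block, with both corrections or with averaged pairs (0 to 1). At 24 h, 1 was called higher with the length and GC correction, also with the block (0 to 1, the 1 without replicate 3 at 24 h). For 6 h against 3 h, 1 was called higher without a filter, with the replicate block or with the block and correction (0 to 1), and members called lower went from 6 to 3 with library size alone, averaged pairs or DESeq2 (3 to 7). Over all times the replicate block gave 11 where 7 were called (6 to 11). The cause of these shifts was not tested. Across the alternatives, 0 called values changed sign.

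Whether replicate numbers pair the libraries was not settled, and the main fit used no block. Over 40 same-number pairs the correlation of deviations ran from -0.20 to 0.21, with 8 above 0.1. Of 17 libraries, 10 correlated best with their own number. No fit was left out, except that no call was made at 1 h without either of its libraries. Depth limits the low members: 23 were not tested, and members such as HIST1H3C rest on 4 to 18 counts per library.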
